A study of Mus musculus with 8 samples.

Results

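Gene expression in the basal ganglia of mice was compared between the Dlx1/2 genotypes -/- and +/-, across all genes of an oligonucleotide array. The comparison takes the 4 arrays whose titles name basal ganglia (BG), 2 of genotype -/- and 2 of genotype +/-, out of 8 arrays in the series. The other 4 arrays are of cortex (Ctx), 2 of each genotype. Each array gave 1 signal for each of 45101 probe sets, of which 64 were controls, and the signals were analysed as log2(signal + 16). BG +/- is tissue with the heterozygous genotype and serves as the control, and BG -/- is tissue with the homozygous mutant genotype. No wild-type array is among the samples. The labels used here give neither the age nor the strain of the animals, nor the mutant alleles, nor whether the 2 arrays of a group came from different animals, so the p-values cover the spread between the arrays at hand, part or all of which may be technical. A source label names blood and adrenal medulla where the description of each sample names basal ganglia or cortex, and genes of both were therefore examined. In bulk tissue, fewer cells of a type and less RNA per cell cannot be told apart.

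Dlx1 and Dlx2 are neighbouring homeobox genes that encode transcription factors of the embryonic ventral forebrain. They are made in progenitors and young neurons of the ganglionic eminences, the source of striatal projection neurons and of GABA-producing interneurons, many of which migrate to the cortex. Both genes are known to be needed for these neurons to differentiate and migrate, and for the activity of Dlx5 and Dlx6, 2 later members of the family.

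Of 13139 autosomal genes tested, 584 (4.44%) were higher and 404 (3.07%) were lower in BG -/- past an adjusted p of 0.05 (limma, two-sided, Benjamini-Hochberg over 31526 probe sets), which is 7.52% in both directions. Each gene is represented by its brightest probe set that names no other gene, and genes on X and Y are set aside. The most strongly reduced genes were the DLX genes with their non-coding neighbours, the GABA transporter Slc32a1 and the retinoic acid receptors Rxrg and Rarb. The largest rises were those of Ebf3, Rmst and the zinc finger gene Zfp950, apart from genes with clone names, of which 6330415B21Rik rose by 2.21. The falls reached further than the rises: 9 genes fell and 3 rose at least 4-fold, while 54 fell and 119 rose at least 2-fold. The median change of the genes that rose was 0.79 on the log2 scale and that of the genes that fell was -0.65, against a median of -0.08 over all autosomal genes and a median standard error of 0.16. In all 988 called genes the 2 arrays of one genotype lay beyond the 2 of the other, which was also so for 60.7% of all autosomal genes tested. Leaving out 1 BG array changed these counts by far more than 1.5 times. With BG +/- replicate 2 left out, 70 genes were higher and 17 lower, and with replicate 3 of that group left out 112 and 25. The counts were 15 and 14 when BG -/- replicate 2 was left out, and 9 and 13 when its replicate 3 was. The Ctx arrays enter this comparison through the estimate of the spread. They also enter the mean over the 8 arrays that sets the filter and each gene's probe set. Both counts became lower when either Ctx -/- array was left out and higher when either Ctx +/- array was. No called gene changed direction in any of these fits, but this was fixed in advance, since the BG arrays of every called gene did not overlap. The BG +/- arrays carried Y-linked transcripts and the BG -/- arrays the X-silencing RNA Xist, so genotype cannot be told apart from sex here (values with the chromosomes). The split between directions depended on scaling: 59.1% of the calls were rises with the signals as deposited, 45.3% after centring each array on its median and 52.7% after quantile normalization, and the median of all autosomal genes was then -0.18 and -0.12.

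**Figure D1:**
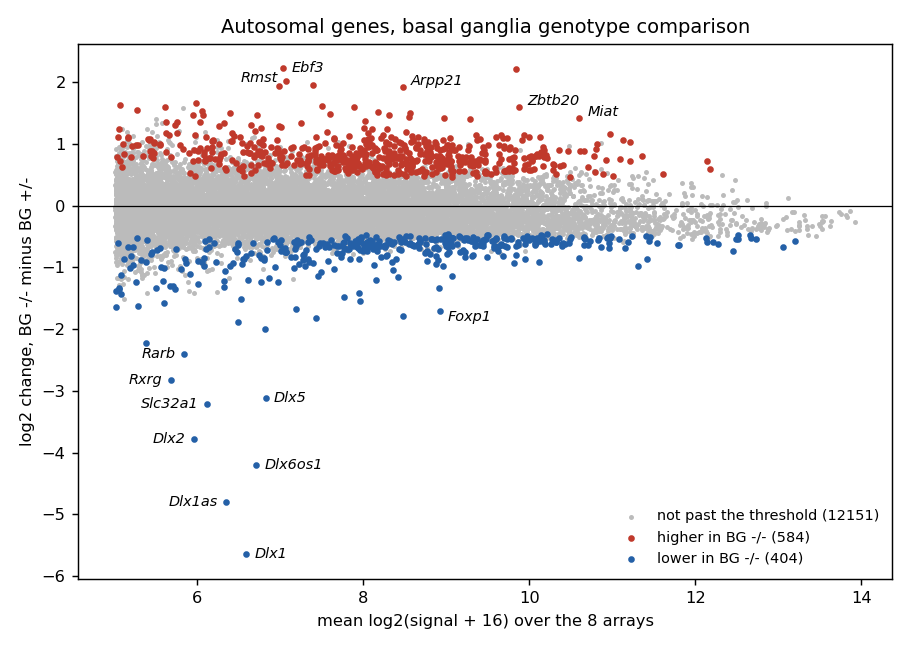
Log2 change of 13139 autosomal genes between BG -/- and BG +/- (vertical axis) against the mean log2(signal + 16) over the 8 arrays (horizontal axis). Red points are the 584 genes higher and blue points the 404 genes lower in BG -/- past the threshold, and grey points did not pass; Dlx1 lies lowest at -5.65 and Ebf3 highest at 2.23.

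The targeted genes were low in both BG -/- arrays. Dlx1 (chromosome 2) had signals of 1232 and 1237 in BG +/- and of 3.669 and 15.47 in BG -/-, a log2 change of -5.65 ± 0.21 (SE; adjusted p = 0.000352). Dlx2 (also chromosome 2) had 358.4 and 287.2 in BG +/- and 8.563 and 8.677 in BG -/-, a change of -3.77 ± 0.16 (adjusted p = 0.000572). Neither gene's arrays overlapped between genotypes, and where the probes lie relative to the mutated sequence is not known here. Dlx1as, the antisense transcript at the same locus, had 531.8 and 602 against 7.839 and 2.223 (-4.80 ± 0.18). On chromosome 6, Dlx6os1, the non-coding transcript of the Dlx5 and Dlx6 locus, had 863.8 and 911.3 against 39.58 and 26.9 (-4.21 ± 0.20). Dlx5, which was not targeted, had 718.7 and 705.7 against 65.61 and 71.12 (-3.11 ± 0.27). In Dlx5 and Dlx6os1, BG -/- thus kept a low signal in both arrays. Dlx6 had 169 and 139.5 against 20.6 and 19.75 (-2.23 ± 0.35, adjusted p = 0.0152) and passed in none of the 4 fits that left out a BG array. Of 7 members of the DLX list that were tested, 6 fell, and Dlx3, which was dim in every BG array, changed by -0.03 ± 0.47. Without any 1 of the 4 BG arrays, 5 of the 6 passed. Dlx1as and Dlx1 overlap in the genome, and their probe sets are told apart here by the platform annotation alone.

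The 250 bases before the start of 4 genes that changed strongly are shown because Rarb, a retinoic acid receptor gene that its own pathway activates in many tissues, and Foxp1, a transcription factor of striatal neurons, were among the clearest falls, and Ebf3 and Zbtb20, both transcription factor genes, among the clearest rises. They come from RefSeq (GRCm38.p6), are written 5′ to 3′ on the strand of the gene, and end just before the start. Capitals mark matches to TAATT on either strand, the core of homeobox binding sites, or to GGTTCA and AGTTCA parted by any 5 bases, the direct repeat of a retinoic acid response element. The Rarb sequence lies at chr14:16575477-16575726 on the minus strand, that of Foxp1 at chr6:99266516-99266765 on the minus strand, that of Ebf3 at chr7:137314446-137314695 on the minus strand and that of Zbtb20 at chr16:43247034-43247283 on the plus strand.
Rarb: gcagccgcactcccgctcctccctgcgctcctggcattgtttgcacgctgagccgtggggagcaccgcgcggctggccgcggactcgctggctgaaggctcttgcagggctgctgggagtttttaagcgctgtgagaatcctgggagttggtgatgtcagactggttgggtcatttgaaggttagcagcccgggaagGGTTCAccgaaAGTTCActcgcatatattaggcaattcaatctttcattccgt
Foxp1: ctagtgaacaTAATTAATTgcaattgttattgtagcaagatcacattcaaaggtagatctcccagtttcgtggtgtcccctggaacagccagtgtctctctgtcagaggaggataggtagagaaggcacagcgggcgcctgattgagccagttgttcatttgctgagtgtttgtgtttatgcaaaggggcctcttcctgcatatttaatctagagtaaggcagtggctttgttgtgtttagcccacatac
Ebf3: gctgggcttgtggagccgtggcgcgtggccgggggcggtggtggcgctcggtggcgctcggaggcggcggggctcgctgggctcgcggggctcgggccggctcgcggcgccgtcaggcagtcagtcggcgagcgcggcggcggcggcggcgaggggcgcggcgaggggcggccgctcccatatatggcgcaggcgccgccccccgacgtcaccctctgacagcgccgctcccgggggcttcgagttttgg
Zbtb20: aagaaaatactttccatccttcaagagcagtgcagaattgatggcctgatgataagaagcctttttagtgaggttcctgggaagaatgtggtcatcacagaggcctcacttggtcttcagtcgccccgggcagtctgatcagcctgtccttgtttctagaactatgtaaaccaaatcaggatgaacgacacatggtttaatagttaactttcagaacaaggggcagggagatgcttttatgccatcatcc
The Rarb promoter holds the repeat 53 bases before the start. Searched on both strands, the repeat occurred in 2 of 32851 promoters of this length (0.00609%). Its fixed letters, GGTTCA and AGTTCA, are exactly those of the Rarb sequence, and other spellings of such elements were not searched. A match in Rarb was therefore set by the choice of motif. The small share gives the rarity of these letters and does not test whether the match in Rarb is unusual. The table gives 3 promoters for Foxp1, with 0, 3 and 1 matches to TAATT, and the one shown is that with 3, which overlap. Ebf3 and Zbtb20 have no match in this window. Slc32a1 and Crabp1, which fell, and Miat, which rose, were searched as well, had no match and are not shown. The genes shown are therefore no sample of the falls and rises. TAATT occurred in 15.7% of 13571 promoters of autosomal genes tested, in 20.4% of 622 promoters of genes that rose and in 15.2% of 415 promoters of genes that fell. A promoter was found for 477 of the 584 genes that rose and for 324 of the 404 that fell. A match is a description of letters and not a binding site.

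Beyond the DLX genes, the largest falls were in a GABA transporter, receptors for retinoic acid and genes of striatal and migrating neurons. Slc32a1, which loads GABA and glycine into synaptic vesicles, had 473.8 and 402.6 in BG +/- and 24.22 and 42.91 in BG -/- (-3.22 ± 0.20, adjusted p = 0.00165). A second, dim Slc32a1 probe set changed by 0.20 ± 0.29. Rxrg, a retinoid X receptor gene, had 340.5 and 295.3 against 58.22 and 14.13 (-2.82 ± 0.42), so its 2 BG -/- arrays were far apart, and it passed in 1 of the 4 fits without a BG array. Rarb had 269.7 and 270.8 against 37.33 and 39.45 (-2.40 ± 0.12, adjusted p = 0.000822). Crabp1, which encodes a protein that binds retinoic acid in the cytoplasm, had 426.2 and 461.6 against 132.8 and 123.5 (-1.67 ± 0.14). The replicate arrays of Rarb and Crabp1 lay close together in both genotypes. Foxp1 had 911.9 and 932.3 against 260.8 and 285.1 (-1.70 ± 0.14), and 5 of its 7 other probe sets also fell. Zfp503, a zinc finger gene of the striatal lineage, had 1067 and 976.3 against 288.6 and 265.9 (-1.82 ± 0.29). Tiam2, an exchange factor for the GTPase Rac, had 233.4 and 231.2 against 58.1 and 53.61 (-1.79 ± 0.13), while its 2 other, dimmer probe sets did not pass. Tiam2 was far brighter in cortex, at 855.5 to 1001 in the 4 Ctx arrays. Cxcr4, the chemokine receptor that guides migrating interneurons, had 249.6 and 277.8 against 83.53 and 83.73 (-1.49 ± 0.14). Maf, a transcription factor of interneurons from the medial eminence, had 568.7 and 583.2 against 175.1 and 198.5 (-1.55 ± 0.22). Htr3a, a serotonin receptor channel of caudal eminence interneurons, had 199.2 and 163.3 against 53.81 and 51.82 (-1.51 ± 0.29). In each of these 3 genes both BG -/- arrays were far below either BG +/- array.

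Gucy1a1, a subunit of the nitric oxide receptor, had 475.3 and 528.8 against 157.9 and 202 (-1.41 ± 0.15), and both of its other probe sets fell. Ebf1, a transcription factor of striatal projection neurons, had 620.3 and 576 against 251.2 and 240.2 (-1.23 ± 0.12), with 2 of 3 other probe sets lower. Chil1, a chitinase-like protein gene, was dim, at 53.75 and 59.34 against 10.1 and 4.55 (-1.65 ± 0.15). The remaining genes among the 20 largest falls were Serpinb6e (-1.88 ± 0.40), Pdlim3 (-1.63 ± 0.35) and Nxph2 (-1.58 ± 0.32), all 3 with large standard errors beside those of Rarb or Foxp1. Of the 4 fits without a BG array, Nxph2 passed in 1 and Serpinb6e, Pdlim3, Zfp503, Maf and Htr3a in none. Dnajc17, which completes the 10 largest falls among bright genes, had 1013 and 927.2 against 394 and 357.5 (-1.33 ± 0.29), while its 1 other probe set had a change above 0, and it too passed in none of the 4 fits.

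The largest rise was that of Ebf3, a helix-loop-helix transcription factor of early neurons, which had 58.93 and 54.18 in BG +/- and 285.6 and 365.1 in BG -/- (2.23 ± 0.15, adjusted p = 0.00248), and both of its other probe sets rose. Rmst, a long non-coding RNA of the neural tube, had 52.88 and 47.6 against 249.3 and 257.6 (2.03 ± 0.18). Marchf1, a ubiquitin ligase gene, had 55.55 and 70.08 against 279.1 and 287.3 (1.93 ± 0.15), with both other probe sets higher. All 3 genes went from about the median brightness of an array to several times it. Zbtb20, a zinc finger transcription factor, had 441.8 and 467 against 1341 and 1475 (1.60 ± 0.12, adjusted p = 0.00299), and all 8 of its other probe sets rose. Miat, a long non-coding RNA of neurons, had 761.5 and 761.8 against 2065 and 2046 (1.41 ± 0.11). Id2, an inhibitor of helix-loop-helix factors, had 799 and 875 against 1836 and 1927 (1.15 ± 0.12). The replicates of these 3 genes differed little beside the change. Arpp21, a cyclic AMP-regulated phosphoprotein gene, had 81.56 and 71.9 against 341.9 and 327.5 (1.92 ± 0.15), but its probe sets disagreed: of the 4 others, 1 rose, 1 fell (from 41.44 and 32.91 to 16.54 and 10.26) and 2 did not pass. Gsx1, a homeobox gene of ventral progenitors, had 55.79 and 24.37 against 148 and 147.7 (1.61 ± 0.36, adjusted p = 0.0393) and passed in none of the 4 fits without a BG array.

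Among further large rises, Cacna2d1, a calcium channel subunit, had 93.09 and 132.3 against 322.4 and 365 (1.5 ± 0.17). Cdh7, a cadherin, had 52.05 and 59.94 against 177.7 and 187.2 (1.46 ± 0.14). Kcnv1, a modifier subunit of potassium channels, had 13.53 and 14.19 against 70.83 and 61.87 (1.46 ± 0.12). The groups of these 3 membrane protein genes lay far apart. Zfp617 had 191.8 and 177.3 against 530.6 and 517.6 (1.43 ± 0.12), and Zfp37 had 197.7 and 159.5 against 519 and 519.8 (1.47 ± 0.14). Vcan, which encodes the matrix proteoglycan versican, had 380.5 and 430.9 against 914.8 and 920.9 (1.15 ± 0.13). St8sia4, which adds polysialic acid to NCAM, had 950.8 and 939.5 against 2040 and 2188 (1.15 ± 0.13). The other genes of the 20 largest rises and of the 10 largest among bright genes changed by 1.19 ± 0.12 (Fstl5) to 1.95 ± 0.22 (Zfp950): they were Calcr, Atr, Kdm7a, Klrg2, Fli1, Lcorl, Ccdc39, Zfp932, Samd5, Ttc14 and Phf20l1. Of 51 ranked and DLX genes, 35 and 38 passed when BG +/- replicate 2 or 3 was left out, and 22 and 19 when BG -/- replicate 2 or 3 was. Over all autosomal genes, 19 passed in every fit that left out 1 array: the falls of Dlx1, Dlx2, Dlx5, Dlx1as, Dlx6os1, Slc32a1, Rarb, Tiam2, Foxp1, Crabp1 and Chil1, and the rises of Ebf3, Marchf1, Arpp21, Zbtb20, Kcnv1, Zfp617, Miat and a transcript known by the clone name 6330415B21Rik. The last had 289 and 284.6 against 1380 and 1384 (2.21 ± 0.12).

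**Figure D2:**
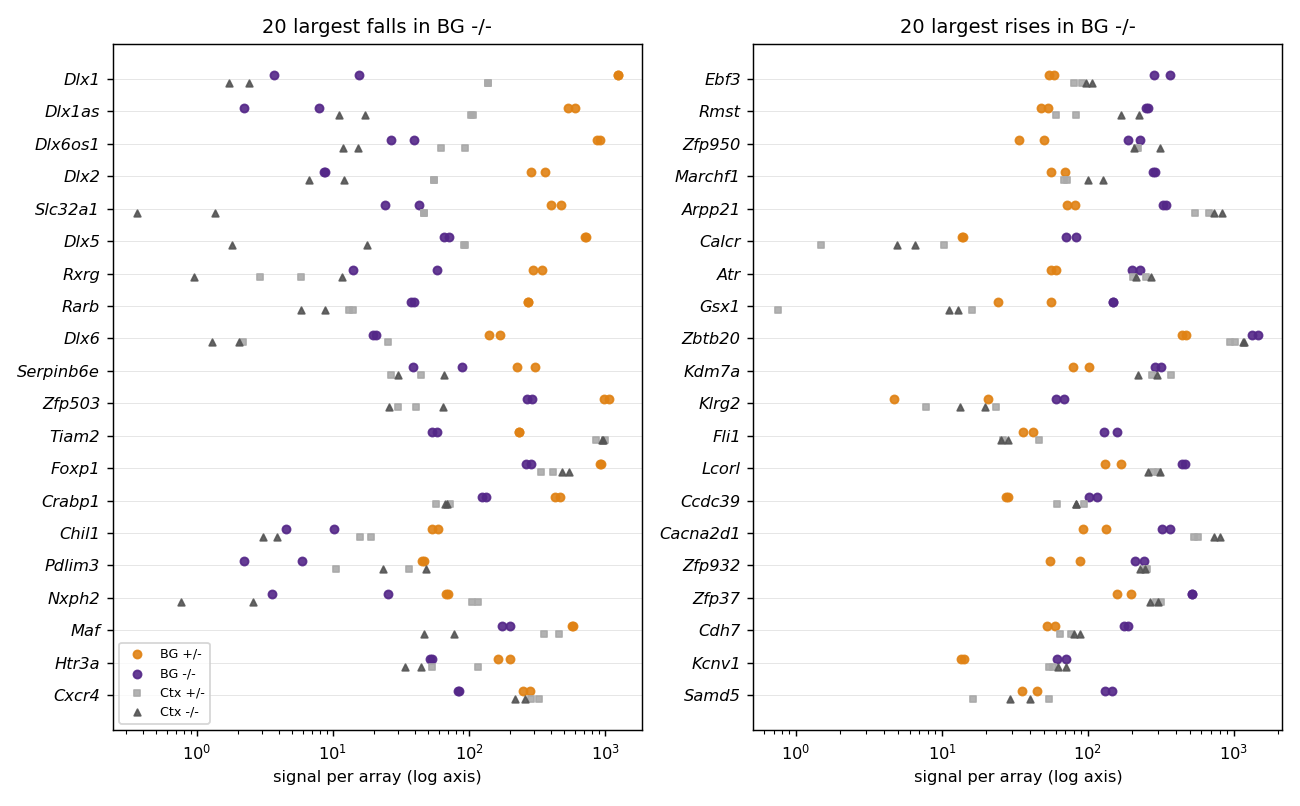
Signal of each array (log axis) for the 20 genes with the largest falls (left) and the 20 with the largest rises (right) in BG -/-; orange and purple circles are the BG +/- and BG -/- arrays, light squares and dark triangles the Ctx +/- and Ctx -/- arrays. For Rarb the BG arrays lie at 269.7 and 270.8 against 37.33 and 39.45, and for Zbtb20 at 441.8 and 467 against 1341 and 1475.

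Striatal projection neurons are the principal neurons of the caudate and putamen, and some of their transcription factors fell. Of 20 tested, 8 fell (40.0%, against 3.07% of all autosomal genes), 12 did not pass and none rose, with a list median of -0.62 against -0.08 over all genes. When BG +/- replicate 2 or 3 was left out 3 and 4 fell, and when BG -/- replicate 2 or 3 was left out 3 and 2 fell. At an unadjusted p below 0.05 in limma, 13 were lower and 1 higher, against 2020 lower and 1478 higher of all 13139 autosomal genes. The 8 that fell were, besides Rarb, Rxrg, Foxp1, Ebf1 and Zfp503, Pou3f1, at 445.6 and 386.5 against 180.1 and 161.1 (-1.21 ± 0.14), Six3, at 350.6 and 369.2 against 148.2 and 144.6 (-1.21 ± 0.17), and Bcl11b. A second, dim Six3 probe set changed by 0.58 ± 0.29 and did not pass. Bcl11b, which encodes CTIP2, a regulator of striatal neuron maturation, had 2658 and 2693 in BG +/- and 1671 and 1641 in BG -/- (-0.69 ± 0.11, adjusted p = 0.0156), and its 3 other probe sets fell as well. Other members of the list did not pass. Isl1, a factor of striatonigral neurons, had 1499 and 1629 against 1339 and 1460 (-0.16 ± 0.16), Foxp2 changed by -0.15 ± 0.14, and Meis2 by -0.59 ± 0.16 (adjusted p = 0.0637). The list thus holds large falls beside genes whose change was of the size of its standard error. Of 18 striatal signalling genes, 3 fell and 2 rose, with a median of -0.37. Drd1, the D1 dopamine receptor, had 123 and 126.4 against 52.26 and 36.17 (-1.24 ± 0.18). Penk, the enkephalin precursor, had 184.8 and 168.1 against 88.59 and 75.87 (-0.97 ± 0.14). Crym, a thyroid hormone-binding protein gene, fell by 1.07 ± 0.19 on the log2 scale. The 2 that rose were Arpp21 and Arpp19 (0.75 ± 0.13), both phosphoproteins of cyclic AMP signalling. The 2 other Arpp19 probe sets changed by -0.22 ± 0.16 and 0.21 ± 0.13 without passing. Tac1, the substance P precursor, had 918.3 and 883.9 against 653.2 and 386.7 (-0.82 ± 0.29, adjusted p = 0.121).

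Of 12 genes of the retinoic acid pathway tested, 4 fell (33.3%) and none rose, with a median of -0.44. They were the receptors Rarb and Rxrg, the binding protein Crabp1 and Cyp26b1, an enzyme that degrades retinoic acid, at 95.91 and 116.7 against 39.81 and 59.5 (-0.91 ± 0.21, adjusted p = 0.0425). The summed signal of the 16 pathway genes on the array was 2092 and 1983 in BG +/- and 1050 and 1003 in BG -/-. Over the striatal and retinoic acid lists together 13 genes fell, and 4 and 5 of the members did so when BG +/- replicate 2 or 3 was left out, and 4 and 3 when BG -/- replicate 2 or 3 was. The medians of all 3 lists stayed below 0 after median centring and after quantile normalization.

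GABA is made by the enzymes that Gad1 and Gad2 encode, packed into vesicles by the product of Slc32a1 and taken up by transporters of the plasma membrane. Of 8 such genes tested, Slc32a1 fell, none rose and 7 did not pass. Gad1 had 1907 and 1720 in BG +/- and 1427 and 1298 in BG -/- (-0.41 ± 0.18, adjusted p = 0.191). Gad2 had 502.5 and 431.3 against 350.2 and 376.9 (-0.34 ± 0.14, adjusted p = 0.164). The arrays of both genes did not overlap, but the changes were small beside that of Slc32a1. Slc32a1 passed without any 1 of the BG arrays.

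Interneuron genes changed in both directions. Of 18 genes of medial ganglionic eminence (MGE) interneurons, 6 fell (33.3%) and 3 rose (16.7%), with a median of -0.20. The falls were those of Cxcr4, Maf, Nxph2, Ackr3, Lhx8 and Calb1. Ackr3, the second receptor for the chemokine that Cxcr4 binds, had 1871 and 1554 against 776.6 and 749.1 (-1.14 ± 0.25). Lhx8, a LIM homeobox gene of cholinergic and interneuron lineages, had 504.5 and 507.2 against 209.9 and 260.3 (-1.06 ± 0.15). Calb1, the calcium-binding protein calbindin, had 591.4 and 595.8 against 312.2 and 319.6 (-0.88 ± 0.14). The 3 rises were of 2 neuropeptides and a zinc finger gene. Npy, neuropeptide Y, had 680.7 and 647 against 1480 and 1413 (1.11 ± 0.13, adjusted p = 0.00721). Sst, somatostatin, had 1907 and 1695 against 2900 and 2807 (0.66 ± 0.13, adjusted p = 0.0254). Zic1, a zinc finger gene of the septum and ventral forebrain, had 818.7 and 806.7 against 1511 and 1586 (0.92 ± 0.13). In cortex Sst instead fell by 1.82 ± 0.13 on the log2 scale, and the difference between the regions was 2.48 ± 0.18 (adjusted p = 0.0161). Lhx6, which specifies these interneurons, had 551.2 and 520.8 against 428.5 and 427.2 in BG and did not pass (-0.31 ± 0.14, adjusted p = 0.194).

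Of 18 genes of interneurons from the lateral and caudal eminences, 3 fell and 1 rose, with a median of -0.04. Htr3a, Dlx6os1 and Sp8, a zinc finger factor of the lateral eminence with 162 and 152.2 against 76.79 and 80.59 (-0.87 ± 0.13), were the falls. Sall3 had the 1 rise, from 86.18 and 74 to 131.5 and 176.6 (0.81 ± 0.20, adjusted p = 0.0498), and did not pass after median centring. Nr2f2, which marks caudal eminence cells, changed by -0.19 ± 0.14. Of 7 cholinergic genes, Lhx8 fell and Zic1 rose. Over the 3 lists of this kind, 9 genes fell and 4 rose. When either BG +/- array was left out, 2 fell and 1 rose. When BG -/- replicate 2 was left out 2 fell, when replicate 3 of that group was left out 1 fell, and none rose in either fit.

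The progenitor lists had medians near that of all autosomal genes. Of 18 ventral progenitor transcription factors, 3 rose (16.7%, against 4.44% of all autosomal genes) and 1 fell (5.56%, against 3.07%). The median was -0.04, against -0.08 over all autosomal genes. Id2, Gsx1 and Otx2 rose, and Six3 fell. Otx2, a homeobox gene of the anterior neural tube and choroid plexus, was dim, at 13.34 and 34.89 against 95.41 and 71.17 (1.35 ± 0.27). Gsx2, which specifies the lateral eminence, had 234.6 and 191.6 against 214.4 and 215.6 (0.02 ± 0.22). Olig2, a progenitor and oligodendrocyte factor, had 213.5 and 144.3 against 326.3 and 265.9 without passing (0.70 ± 0.38, adjusted p = 0.279). Of 24 Notch pathway genes 1 rose, the receptor gene Notch2 (0.60 ± 0.14), whose change was -0.01 when its probe sets were averaged. Of 12 Sonic hedgehog pathway genes none passed in limma, and 4 had an unadjusted p below 0.05, all with a change below 0. Over all 13139 autosomal genes, 2020 were lower at that unadjusted p. Of 22 radial glia genes 2 rose: Ednrb, the endothelin B receptor, had 438 and 451.8 against 972.4 and 948.5 (1.08 ± 0.12), and Ptprz1, a receptor phosphatase, had 1311 and 1311 against 2118 and 2308 (0.75 ± 0.13). Vim, the intermediate filament vimentin of radial glia, changed by -0.22 ± 0.13.

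Of 39 cell cycle genes, 5 rose and 2 fell, while the list's median was -0.25, so most members lay on the side of the falls without passing. The rises were of mitotic genes: Cenpf (0.78 ± 0.11) of the kinetochore, Kif11 (0.74 ± 0.14), a spindle motor, Nusap1 (0.64 ± 0.12) of the spindle, Top2a (0.64 ± 0.12), which untangles DNA, and Bub1 (0.49 ± 0.11), a checkpoint kinase. Cdk1, the mitotic kinase itself, fell from 1445 and 1384 to 787.2 and 751.5 (-0.87 ± 0.14), and Mcm5, of the replicative helicase, fell by 0.56 ± 0.13 on the log2 scale. Mki67, the proliferation marker, had 527.1 and 541.3 against 845.4 and 808 and did not pass (0.61 ± 0.18, adjusted p = 0.077). After median centring 1 of the cell cycle genes rose and 2 fell. Among 13 oligodendrocyte lineage genes, Ugt8a, an enzyme of myelin lipid synthesis, rose (0.73 ± 0.15). Over these progenitor, cycle and glial lists, 12 of 124 genes tested rose and 3 fell, beside 4.44% and 3.07% of all autosomal genes. Rises numbered 2 and 3 when BG +/- replicate 2 or 3 was left out and 0 when either BG -/- array was, and there were 0 falls in these 4 fits. The medians of the ventral progenitor, Notch, Sonic hedgehog and radial glia lists changed sign under another scaling.

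Genes of axon guidance, neuronal adhesion and synapses held more rises than falls with the signals as deposited, and for adhesion this turned after median centring. Of 40 axon guidance and migration genes, 8 rose (20%, against 4.44% of all autosomal genes) and none fell, with a median of 0.19. At an unadjusted p below 0.05 in limma, 16 were higher and 3 lower, against 1478 higher and 2020 lower of all 13139 autosomal genes. Dcc, the netrin receptor, had 430.4 and 463.5 against 877.9 and 814.8 (0.90 ± 0.12). Epha3 and Epha7, ephrin receptors, rose by 0.75 ± 0.11 and 0.90 ± 0.19. Sema6d, a membrane semaphorin, had 446 and 408.5 against 756.8 and 786.3 (0.83 ± 0.14). Lrp8 (0.71 ± 0.14), a reelin receptor, and Dab1 (0.59 ± 0.13), the adaptor below it, rose, as did Unc5d (0.67 ± 0.14), a netrin receptor, and Nrg3 (0.59 ± 0.12), a neuregulin. All 8 changes were below 2-fold, and the 2 other Lrp8 probe sets, at -0.37 ± 0.16 and 0.26 ± 0.17, did not pass. Of 37 neuronal adhesion genes, 6 rose and 2 fell, with a median of 0.28, and after median centring 1 rose and 2 fell. Chl1, an adhesion molecule of the L1 family, had 1324 and 1347 against 2780 and 2709 (1.03 ± 0.11, adjusted p = 0.0064), and Nrcam, of the same family, rose by 0.62 ± 0.12. Cdh10, Nlgn1, Pcdh9 and Cdh11 rose by 0.51 to 0.75. The falls were of Nrxn3, a neurexin, from 627.5 and 651.9 to 344.1 and 356.7 (-0.84 ± 0.18), and of Pcdh8 (-0.55 ± 0.12).

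Of 51 synapse and neuron maturation genes, 9 rose and 3 fell, with a median of 0.24. Gabrb2, a GABA-A receptor subunit, had 210.6 and 235 against 437.6 and 474.5 (0.98 ± 0.13). Scn2a, a sodium channel of young axons, had 250.7 and 246.1 against 459.2 and 486.4 (0.89 ± 0.13). Snap25, of the vesicle fusion machinery, had 536.1 and 598.5 against 1030 and 973.9 (0.81 ± 0.12). In all 3 genes the genotypes lay far apart beside the spread within each. Scn1a, Gria2, Gria4, Elavl2 and Elavl4 also rose, by 0.51 to 0.76, beside Cacna2d1. Grik3, a kainate receptor subunit, fell from 634.4 and 466.9 to 229.7 and 240.8 (-1.16 ± 0.17), Camk2a by 0.93 ± 0.22 and Cplx1 by 0.56 ± 0.13 on the log2 scale. The 3 other, dimmer Camk2a probe sets changed by -0.07 to 0.24 and none passed, so its fall rests on 1 probe set. Of the 2 other Cplx1 probe sets 1 fell. Of 31 autosomal genes of neurite growth and the cytoskeleton, 2 rose and none fell: Ank3, at 911.8 and 1145 against 1884 and 2022 (0.92 ± 0.15), and Ank2 (0.78 ± 0.15), both ankyrins that anchor channels in the axon. Map2, a dendritic microtubule protein, had 2981 and 3204 against 3916 and 4096 without passing (0.37 ± 0.12, adjusted p = 0.104). Over these 4 lists 25 genes rose and 5 fell. Leaving out BG +/- replicate 2 gave 2 rises and 0 falls, leaving out its replicate 3 gave 4 and 1, leaving out either BG -/- array gave 0 of both, and leaving out either Ctx -/- array gave 11 and 1. After median centring 10 rose and 5 fell, and the medians of the guidance, adhesion and synapse lists remained above 0, while that of the neurite list moved from -0.14 to 0.09 under quantile normalization.

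**Figure D3:**
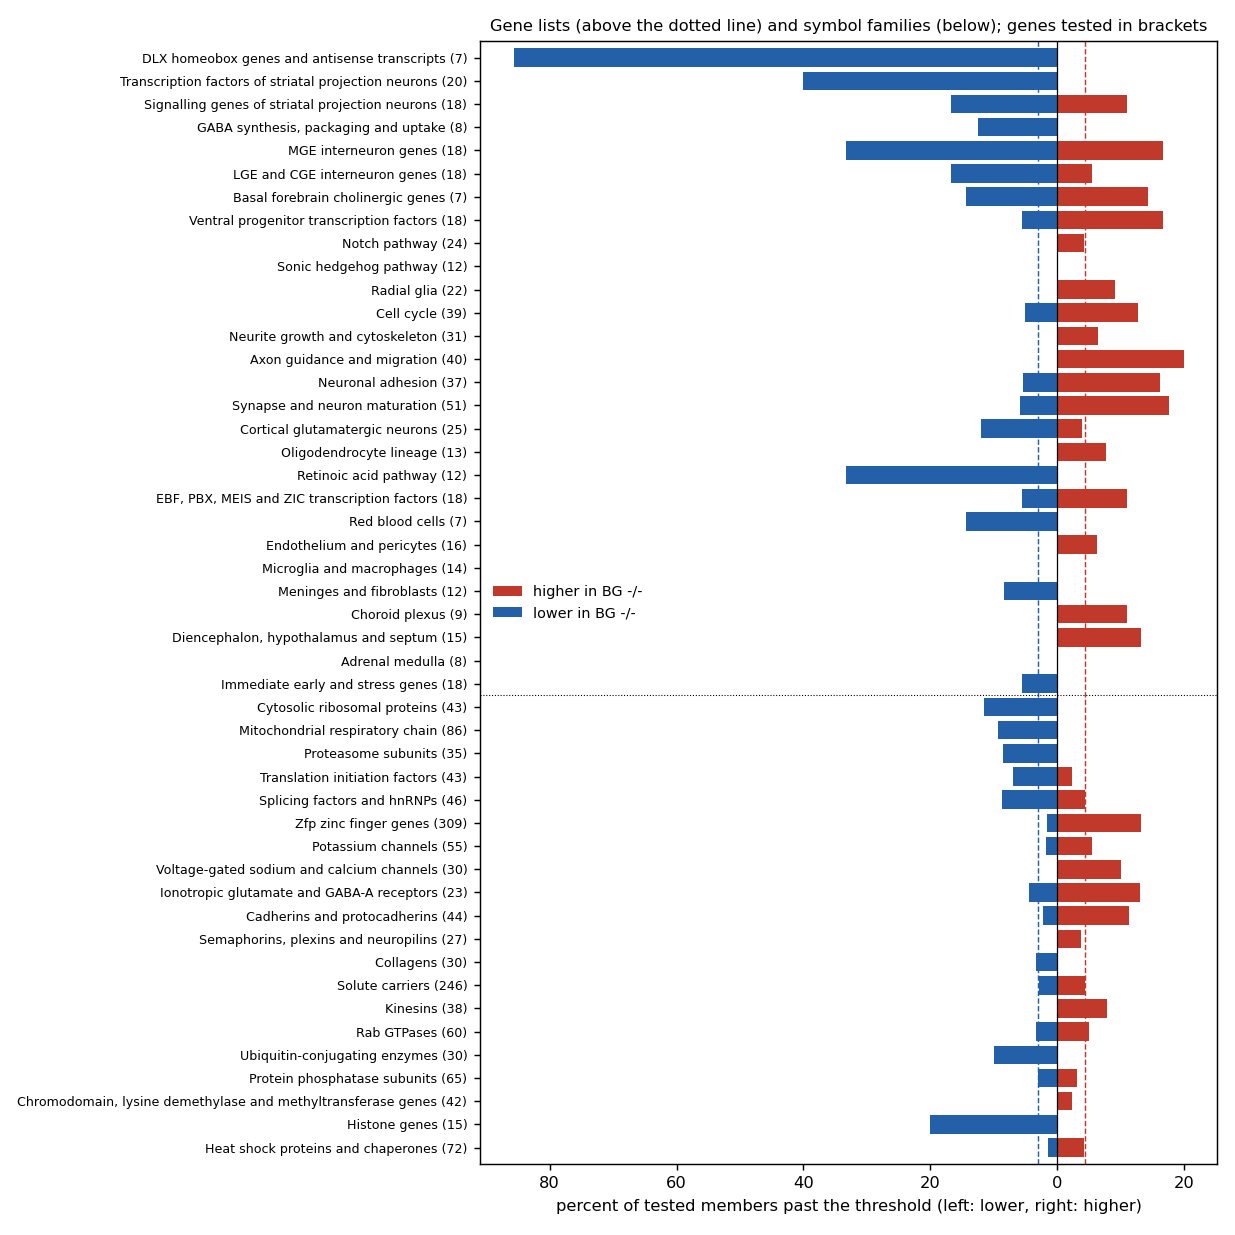
Percent of the tested members of each gene list (above the dotted line) and symbol family (below it) past the threshold, to the left for genes lower and to the right for genes higher in BG -/-, with the number of genes tested in brackets. Dashed lines give the shares over all autosomal genes, 3.07% lower and 4.44% higher; 40.0% of the striatal transcription factors were lower and 20% of the axon guidance genes were higher.

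Genes that mark neighbouring brain regions were examined next. Of 15 genes of diencephalon, hypothalamus and septum, 2 rose and none fell, with a median of 0.24. Otp, a homeobox gene of the hypothalamus, had 218.4 and 211.9 against 439.9 and 493.4 (1.06 ± 0.15). Lhx9, of the diencephalon, had 143.2 and 136.4 against 219.4 and 214.5 (0.58 ± 0.14, adjusted p = 0.0472). The summed signal of this list was 1203 and 1128 in BG +/- and 1586 and 1720 in BG -/-, and its part in the other rises was not tested. Of 25 genes of cortical glutamatergic neurons, 3 fell and 1 rose. Slc17a6, a vesicular glutamate transporter also made in diencephalon, had 230 and 235.8 against 505.1 and 484.9 (1.04 ± 0.16). Neurog1 (-0.92 ± 0.17), Neurog2 (-0.56 ± 0.13) and Fezf2 (-0.68 ± 0.13), transcription factors of cortical progenitors and neurons, fell. The summed signal of this cortical list was 9312 and 8862 in BG +/- and 9269 and 9492 in BG -/-, so the 2 genotypes overlapped, and it was 30749 to 31604 in the 4 Ctx arrays. Of 18 genes of the EBF, PBX, MEIS and ZIC families, Ebf3 and Zic1 rose and Ebf1 fell, so 2 genes of the EBF family moved in opposite directions. Over these 3 lists 5 genes rose and 4 fell. If either BG +/- array was left out, 1 rose and 1 fell, and if either BG -/- array was, 1 rose and none fell.

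Markers of other cell types were examined next. Of 7 red blood cell genes tested, all had a change below 0, as had 7716 of all 13139 autosomal genes. Hbb-y, an embryonic globin, fell from 5819 and 5476 to 2908 and 2793 (-0.98 ± 0.13, adjusted p = 0.0101). The summed signal of the 11 red blood cell genes on the array was 6936 and 6688 in BG +/- and 3639 and 3469 in BG -/-, a difference that moves with genotype in the same direction as the striatal falls, and its part in them was not tested. None of 8 adrenal medulla genes passed in limma, 1 had an unadjusted p below 0.05, and the list's summed signal was 1049 and 868 against 1012 and 916. Th, the enzyme that defines catecholamine cells, had 52.21 and 14.24 against 28.65 and 49.24. None of 14 microglia genes passed in limma, and 2 had an unadjusted p below 0.05. Over all 13139 autosomal genes, 3498 had an unadjusted p below 0.05. Of 16 endothelial and pericyte genes, Rgs5, a pericyte marker, rose from 234.4 and 206.9 to 440.7 and 453.3 (0.97 ± 0.12). Fbln1 (-0.62 ± 0.14) was the 1 of 12 meningeal genes that fell, and its 2 other, dim probe sets changed by -0.05 and 0.08 without passing. The 12 choroid plexus genes summed to 252 and 277 against 342 and 345 in BG. Their sums were 12379 and 14179 in Ctx +/- and 179 and 78 in Ctx -/-. Otx2 was the 1 of 9 tested that rose in BG. Of 18 immediate early and stress genes, Egr3 fell, from 146.2 and 153.3 to 52.35 and 57.5 (-1.23 ± 0.17). Over these lists 2 of 84 genes tested rose and 3 fell, beside 4.44% and 3.07% of all autosomal genes. The counts became 1 and 0 when BG +/- replicate 2 was left out, 1 and 1 when its replicate 3 was, and 0 and 0 when either BG -/- array was.

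Among families defined by their symbols, those of the ribosome, the respiratory chain and the proteasome lay mostly below 0. Of 43 genes of cytosolic ribosomal proteins, 5 fell (11.6%) and none rose, and 40 had a change below 0, with a median of -0.35. Of 86 subunits of the mitochondrial respiratory chain, 8 fell (9.3%) and none rose, 81 had a change below 0, and the median was -0.36. Over all 13139 autosomal genes 3.07% fell, 7716 had a change below 0 and the median was -0.08. At an unadjusted p below 0.05 in limma, 27 of the ribosomal and 54 of the respiratory chain genes were lower and none in either family higher. Of all 13139 autosomal genes, 2020 were lower and 1478 higher at that unadjusted p. Of 35 proteasome subunits, 3 fell (8.57%) and none rose, with a median of -0.26. Examples are Rps20, which had 13390 and 13522 against 9285 and 8859 (-0.57 ± 0.11), and Uqcrh, a subunit of complex III, which had 5101 and 5185 against 3387 and 3228 (-0.63 ± 0.12). These genes are among the brightest on the array. With genes split by brightness into 3 equal bins, the median change was -0.13 in the brightest bin and -0.02 in the dimmest. In the brightest bin 6.78% of the genes were called higher and 5.07% lower. The part of brightness in the falls of these families was not tested. Quantile normalization moved the ribosomal median to -0.06, that of the respiratory chain to -0.21 and that of the proteasome to -0.14, and 1, 3 and 0 of their members then fell, against 2, 6 and 1 with median centring. None of the 16 falls in these 3 families passed without any 1 of the BG arrays. Of 15 histone genes, 3 fell (20%), among them H2az1, at 6054 and 6214 against 4331 and 4154 (-0.53 ± 0.11). Of 30 ubiquitin-conjugating enzymes, 3 fell.

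Zinc finger genes whose symbols begin with Zfp stood on the other side. Of 309 tested, 41 rose (13.3%) and 5 fell (1.62%), while the median was 0.09, so the rises lay in a minority of the family. The median moved to -0.01 with median centring, under which 27 rose. Zfp445, which helps to silence imprinted genes, had 863.9 and 847.3 against 1547 and 1636 (0.88 ± 0.11), Zfp148 had 666.4 and 609.8 against 1159 and 1133 (0.83 ± 0.12), and Zfp329 had 190.1 and 194.4 against 409.7 and 395.7 (1.01 ± 0.11). In the family 9 rose when BG +/- replicate 2 was left out, 13 when its replicate 3 was, and 1 when either BG -/- array was, and none fell in these fits. Sf3b1, a splicing factor, also rose, from 985 and 965.6 to 1925 and 2025 (1.01 ± 0.11), while 4 of 46 splicing genes fell. Of 44 cadherins and protocadherins, 5 rose (11.4%, against 4.44% of all autosomal genes) and 1 fell (2.27%, against 3.07%), and after median centring 1 rose and 1 fell. Of 30 sodium and calcium channel genes, 3 rose and none fell, and after median centring 2 rose and 1 fell. Of 23 ionotropic glutamate and GABA-A receptor genes, 3 rose and 1 fell, and after median centring 1 rose and 1 fell. Apart from the ribosomal, respiratory chain, proteasome and Zfp families, 41 of 866 family members tested rose and 29 fell, close to the 4.44% and 3.07% of all autosomal genes. Both counts were much lower when any 1 of the BG arrays was left out.

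The genotype effect in basal ganglia was set beside that in cortex, measured on the other 4 arrays. In cortex 23 of the autosomal genes passed (0.175%), and the difference between the effects passed in 45 (0.342%). Of the 584 genes that rose in BG, none was called higher and 2 were called lower in Ctx, 397 had a Ctx change above 0 and the median Ctx change was 0.07. Of the 404 that fell, 8 were called lower in Ctx, 294 had a Ctx change below 0 and the median was -0.10. The difference between regions was called for 27 of the rises and 9 of the falls, so for most called genes a difference between the regions was not shown. It was called for Rarb (-2.04 ± 0.17), Foxp1 (-2.13 ± 0.20), Crabp1 (-1.73 ± 0.19) and Tiam2 (-1.84 ± 0.18) among the falls. Among the rises it was called for Ebf3 (2.01 ± 0.22), Miat (1.47 ± 0.15), Zbtb20 (1.35 ± 0.17) and Npy (1.71 ± 0.18). Maf and Nxph2 fell in both regions, by 1.55 and 1.58 in BG and by 2.46 and 2.84 in Ctx on the log2 scale, and neither difference passed. Rmst changed by 1.27 ± 0.18 in Ctx (adjusted p = 0.0838), and the difference from BG was 0.76 ± 0.26 (adjusted p = 0.211).

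**Figure D4:**
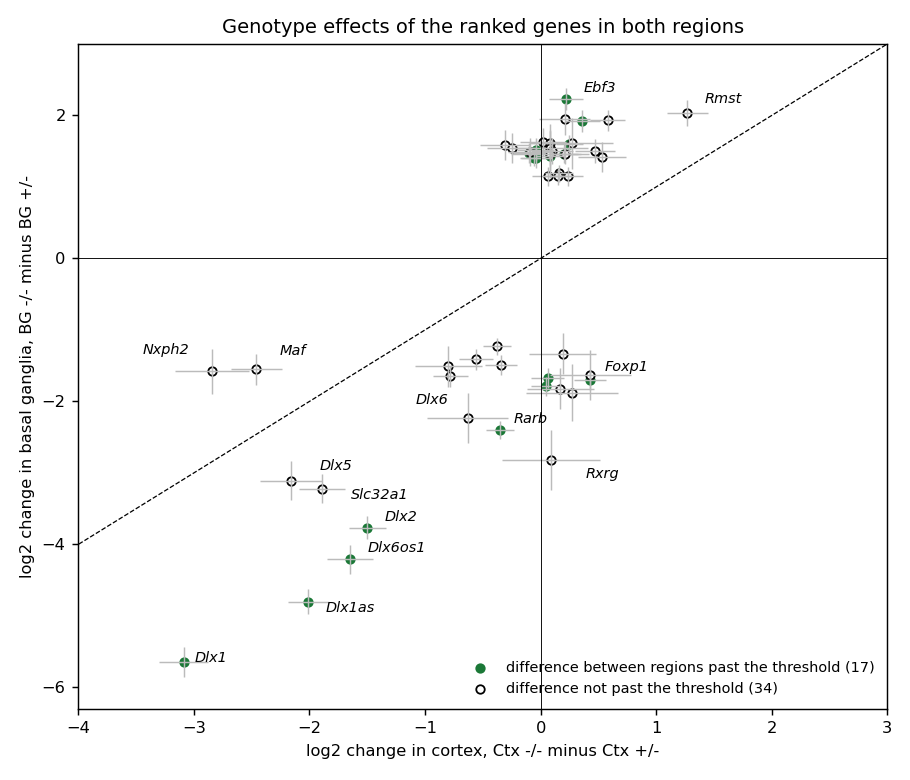
Log2 change in basal ganglia (vertical axis) against that in cortex (horizontal axis) for the 51 ranked and DLX genes, with standard errors as bars. Filled points are genes whose difference between the regions passed the threshold, and the dashed line marks equal changes; Foxp1 lies at -1.70 in BG and 0.43 in Ctx, and Maf at -1.55 and -2.46.

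The level of the called genes in cortex gives a further description. Genes that rose had a median signal of 179 in BG +/- and 324 in BG -/-, beside 303 in Ctx +/- and 324 in Ctx -/-. Genes that fell had a median of 420 in BG +/- and 245 in BG -/-, beside 338 and 285 in Ctx. Of the 584 genes that rose, BG +/- had the lowest of the 4 group means in 516 (88.4%), against 51.8% of all 5423 autosomal genes with a change above 0. Of the 404 that fell, it had the highest mean in 349 (86.4%), against 68.0% of 7716 genes with a change below 0. The calls use the same BG +/- arrays, so these shares are a description with no test. Miat is an example, with 761.5 and 761.8 in BG +/-, 2065 and 2046 in BG -/-, and 1820 to 1939 in the 4 Ctx arrays.

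Counted by probe set, 2039 of 24834 that name 1 autosomal gene passed (8.21%), 1446 higher (5.82%) and 593 lower (2.39%), so the surplus of rises was larger than by gene. Of 11695 other probe sets of autosomal genes, 862 (7.37%) rose and 189 (1.62%) fell, and of 5148 with no gene symbol, 763 (14.8%) rose and 54 (1.05%) fell. Of 442 genes that rose and had further probe sets tested, 358 had all of them changed in the same direction and 234 had another called the same way. Of 200 genes that fell and had further probe sets, 134 had all in the same direction and 41 had another called. In 3 called genes another probe set was called the opposite way: Arpp21 among the rises, and Cenpp and Thyn1 among the falls, the latter named after their values were seen.

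Called genes lay on every autosome, in shares from 5.01% on chromosome 19 to 10.6% on chromosome 13. On chromosome 2, which carries Dlx1 and Dlx2, 57 of 1094 genes rose and 42 fell (9.05%). Of 445 genes on X, 58 rose and 9 fell (15.1%), and of 8 on Y, 3 fell. Xist, the RNA that silences the second X chromosome in females, had 34.16 and 42.38 in BG +/- and 2340 and 2519 in BG -/-. Eif2s3y, on Y, had 241.5 and 260.8 against 4.927 and 1.201. The genotypes thus differed in transcripts that differ by sex, sex and genotype cannot be told apart on these arrays, and an autosomal gene that differs by sex would count among those called. Pak3, a kinase that regulates the cytoskeleton, and Dcx, doublecortin of migrating neurons, lie on X and were set aside for this reason. Pak3 had 1069 and 1029 against 2706 and 2669, and Dcx had 2599 and 2426 against 4993 and 4617.

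**Figure D5:**
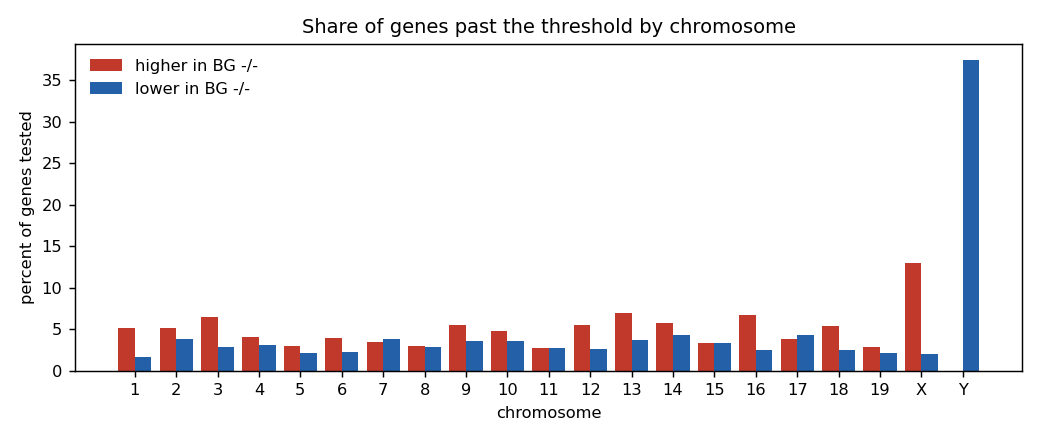
Percent of the genes tested on each chromosome that were higher (red) or lower (blue) in BG -/- past the threshold. Both directions together reach 5.01% to 10.6% on the autosomes, 15.1% of 445 genes on X and 37.5% of 8 genes on Y.

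The median signal was 46.6 and 46.7 in the BG +/- arrays and 50.7 and 51.5 in the BG -/- arrays, so it differed between the genotypes, and centring on it lowered the genes called higher from 584 to 292. The trimmed mean was 150 in each, and the ratio of 3′ to 5′ actin signal was 1.31 to 1.34. The signal of the 18S ribosomal RNA 5′ control differed widely, at 1124 and 5265 in BG +/- and 1126 and 449.7 in BG -/-, and its part in the results was not tested. With 2 arrays a group, precision is limited by the number of arrays throughout.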

How the data were processed

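The deposited values are intensity values, 1 linear signal per probe set and array, from the authors' series table; the software that made them is not given in the sources used here. The trimmed means are equal at 150, so the arrays had been scaled before deposit. Columns were matched to samples by title, and 0 columns of values were left unmatched. Signals were analysed as log2(signal + 16), which understates changes of dim genes, and control probe sets were left out. The lowest 30% of probe sets by mean were dropped, which left 31526. A model of 4 group means was fitted over all 8 arrays in limma 3.58.1 (R 4.3.3, lmFit and eBayes, 4 residual and 2.76 prior degrees of freedom), with two-sided tests adjusted by Benjamini-Hochberg and a threshold of 0.05. Errors of log2 changes are standard errors of this fit with n = 2 arrays a group, and every adjusted p in the text is from it.

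The platform annotation gave 1 symbol for 34945 of 45037 probe sets, several for 932 and none for 9160. Chromosomes came from RefSeq gene tables of GRCm38.p6. Genes named are Dlx1, Dlx2, Dlx5 and Dlx6, the 20 largest falls and rises among called genes whose arrays did not overlap, the 10 largest of each with a mean signal above 500 in the higher group, and up to 6 called members of each of 29 lists, further called members being added. Genes with clone names were passed over (1 among the falls, 2 among the rises and 1 among the bright rises), except 6330415B21Rik, chosen after its values were seen. Members given without passing, X and Y genes and family members were chosen as examples with their values known. The comparison, the 29 lists and the 20 families were chosen with earlier results of these data known. The sex-linked list holds no autosomal gene. Simulated arrays of all 31526 probe sets were used to test the fit for this comparison. Log2 changes of 0.5, 1 and 2 were given to 67, 67 and 66 probe sets, and recovery was 0%, 34.3% and 71.2%. In the data 3070 probe sets passed, and the adjustment is stricter when few probe sets change. These shares therefore do not give the recovery in the data. Alternatives tried were another offset, no filter, median centring, quantile normalization, BG arrays alone, a replicate block, an intensity trend, each array left out, means of probe sets, all chromosomes and a stricter threshold.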

Additional observations from a re-analysis of the deposited data

Results flagged for a closer look

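The test of the difference between the genotype effects in basal ganglia and in cortex passed for 21 of the genes named by the rule and for 6330415B21Rik, each given as the BG effect minus the Ctx effect on the log2 scale (limma, adjusted p below the threshold). In the DLX group the differences were -2.56 for Dlx1, -2.28 for Dlx2, -2.80 for Dlx1as and -2.56 for Dlx6os1. The -/- signals of Dlx1, Dlx2 and Dlx1as lay near or below the offset of 16 in both regions, so their differences depend on the level in +/-, which was higher in BG, and on the offset; they do not compare how far each gene fell. Dlx6os1 lay below the offset in Ctx -/-, at 15.17 and 11.85, so its Ctx fall is limited in the same way. Among other falls the differences were -2.04 for Rarb, -2.13 for Foxp1, -1.73 for Crabp1, -1.84 for Tiam2 and -1.68 for the immediate early gene Egr3. In Ctx +/- Rarb, at 13.22 and 14.09, and Egr3, at 0.9991 and 3.596, lay below the offset. A fall of these genes in cortex could hardly register. Among the rises the differences were 2.23 for 6330415B21Rik, which was named after its values were seen, 2.01 for Ebf3, 1.57 for Arpp21, 1.35 for Zbtb20, 1.56 for Lcorl, 1.56 for Zfp37, 1.26 for Kcnv1, 1.35 for Zfp617, 1.47 for Miat and 1.45 for Phf20l1. The neuropeptide genes Npy and Sst differed by 1.71 and 2.48, and Otx2 by 2.77. For Npy, Sst and Otx2 the BG change was above 0 and the Ctx change below 0. Otx2 is also a choroid plexus gene, and the choroid plexus list summed to 12379 and 14179 in Ctx +/- and to 179 and 78 in Ctx -/-. The part of that tissue in the Ctx change of Otx2 was not tested.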

How the results depend on the processing

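Counts depended on the settings tried. No called gene changed sign after median centring or quantile normalization. In the other settings fitted on single probe sets a change of sign was not possible, since the BG arrays of every called gene did not overlap. With means of probe sets 1 of the genes named, Notch2, changed sign, at -0.01. Main counts were 584 genes higher and 404 lower, and 1446 and 593 autosomal probe sets. An offset of 4 lowered the genes called lower to 265, and an offset of 64 gave 905 and 999 genes, and 1460 probe sets lower. Without the filter, 350 and 132 genes and 841 and 216 probe sets passed. Median centring gave 292 genes and 749 probe sets higher. BG arrays alone gave 188 and 68 genes, and 479 and 120 probe sets. An intensity trend gave 1075 and 1410 genes, and 2350 and 2035 probe sets. A threshold of 0.01 gave 70 and 17 genes. With 1 array left out, genes higher ranged from 9 to 656 and genes lower from 13 to 489, and probe sets from 24 to 1580 and from 21 to 741. A lone array left in a group is assumed to vary like the other groups. No pairing by replicate number was seen (correlation of replicate differences between the BG groups 0.005). This does not exclude pairing, since the labels do not say what a replicate number shares. The replicate block gave 376 genes higher and 168 lower, and 267 probe sets lower. The other counts stayed within 1.5 times. The cause of these changes was not tested, except that fewer arrays leave fewer degrees of freedom. Signals near the offset carry little information, since 24.6% to 26.5% of the signals of a BG array were below 16.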
